A study of Mus musculus with 12 samples.

Results

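Gene expression of the liver X receptor (LXR), PPARG and cholesterol efflux pathway was described in cultured mouse preosteoclasts for 10 genes taken by their symbols. No measured value served as a filter, but earlier results of these data were known at the choice. They were the receptors Nr1h2, Nr1h3 and Pparg, the cholesterol exporters Abca1 and Abcg1, the apolipoprotein Apoe, the ubiquitin ligase Mylip, the lipase Lpl, the scavenger receptor Cd36 and the sterol hydroxylase Cyp27a1. All 10 were found among the 57010 genes listed, and all 10 passed the filter on low counts that left 15425 genes for testing.

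LXRs are nuclear receptors that bind oxysterols, which are oxidised forms of cholesterol, and act as heterodimers with retinoid X receptors. In macrophages, their classical targets export cholesterol through ABCA1 and ABCG1 to apolipoprotein acceptors such as APOE, and IDOL, the product of Mylip, marks the LDL receptor for degradation. PPARG binds fatty acid ligands, is known for Cd36 and Lpl among its targets, and has been linked with LXR through Nr1h3 and with osteoclast differentiation.

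RNA was sequenced from bone marrow cells of female mice cultured for 2 days with M-CSF and RANKL, the cytokines that turn myeloid precursors into osteoclasts. The 12 libraries came from 9 mice and formed 6 conditions of 2 libraries each. LSD1cKO mice lacked LSD1, the histone demethylase encoded by Kdm1a, through floxed alleles and Cre driven by LysM, a promoter active in myeloid cells and not particular to osteoclasts, and LSD1WT mice were the controls, whose alleles were not given further in the sources used here. Each genotype gave mandible and femur cultures from mice that had carried a ligature around maxillary molars for 7 days, the ligature-induced periodontitis model, and femur cultures from unligated mice. The ligated mice were 2 months old in the labels, whereas the study's methods give 2 months at ligature placement in one place and 3 months for ligated and unligated culture donors in another. The LSD1cKO mandible and ligated femur pairs came from the same 2 mice, whereas only replicate 1 did so in LSD1WT. The mandible LSD1WT pair carried the numbers 1 and 3, and replicate 3 had a title naming mandible and a library name naming femur. The titles name a different mouse for each library of a condition.

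Total counts ranged from 21375805 to 32526751 per library. Levels are given as CPM, read counts scaled to the size of each library. Kdm1a was at 61.2 to 71.3 CPM in LSD1WT and at 15.6 to 24.3 CPM in LSD1cKO libraries, a log2 fold change of -1.82 over the 3 cultures (SE 0.11, adjusted p = 3.6e-05, edgeR quasi-likelihood test with Benjamini-Hochberg adjustment). Replicate 2 of the LSD1WT femur stood apart in both the ligated and the unligated culture. Its 13 osteoclast marker genes summed to 458 and 749 CPM against 13103 to 44704 CPM in the other 10 libraries. The 12 listed macrophage markers, 11 of them tested, summed to 15220.3 and 12018 CPM against 1638 to 4853 CPM. Megakaryocyte markers reached 903 and 439 CPM against 10.6 to 60.9 CPM. Adipocyte markers, from another cell type with high Pparg, summed to at most 0.0764 CPM in any library. Because these libraries formed 1 of the 2 replicates in each LSD1WT femur condition, fold changes between genotypes in the femur and over the 3 cultures are given with and without both. In the latter analysis each LSD1WT femur condition was 1 library, assumed to vary like the other conditions, and 16008 genes were tested.

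Both libraries lay above all the other 10 for 5 of the 10 genes, Nr1h2, Pparg, Apoe, Mylip and Cd36, and below them for 1, Nr1h3. Of all genes, 19.1% lay above and 17.9% below in this way. In the ligated femur, replicate 2 exceeded replicate 1 by 31.8-fold for Cd36, 27.8-fold for Cyp27a1 and 22.3-fold for Apoe. It was 5.71-fold lower for Abcg1, 4.11-fold lower for Nr1h3 and 2.89-fold lower for Lpl. Within a pair of replicates, 8 of the 10 genes differed by more than 2-fold in the LSD1WT ligated femur, 7 in the LSD1WT unligated femur, 3 in the LSD1cKO unligated femur and 0 in the other 3 conditions, beside 39.2%, 35.2% and 18.6% of all genes in the first 3 of these. Macrophage markers and 5 of these genes were thus high, and osteoclast markers and Nr1h3 low, in the same 2 libraries. The part of cell composition in these values was not tested, and in such bulk samples fewer cells of a type and less RNA per cell cannot be told apart.

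**Figure D1:**
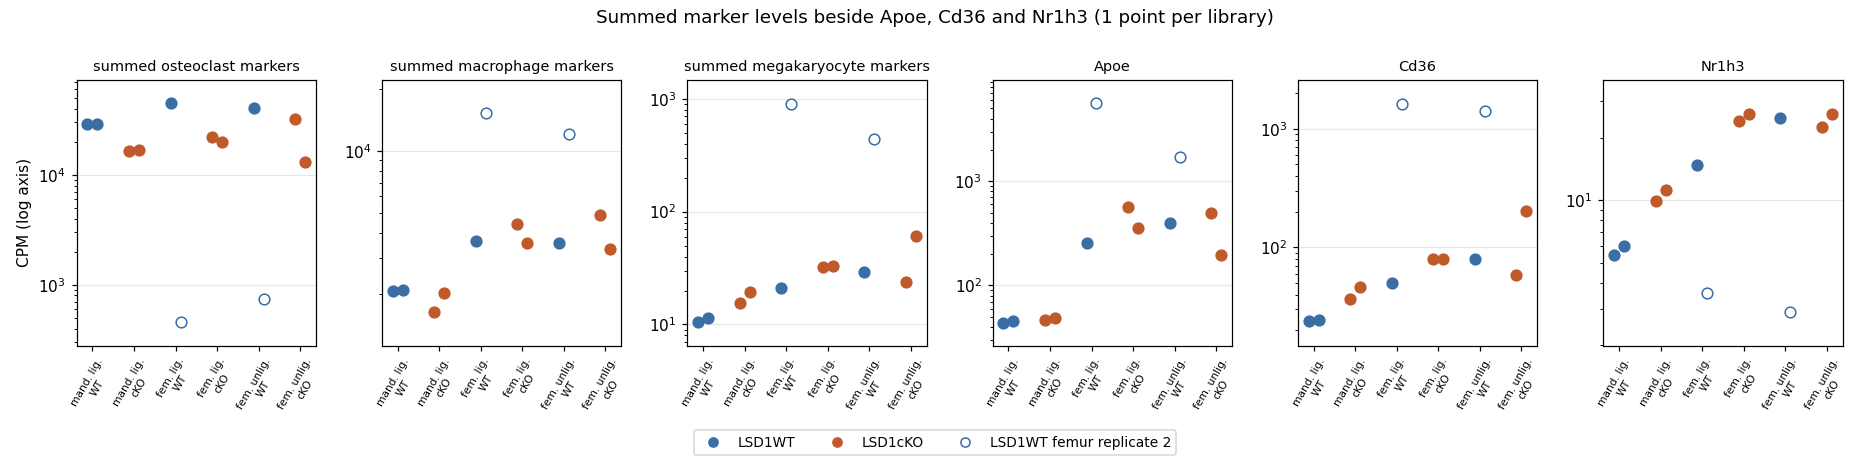
Summed CPM of osteoclast, macrophage and megakaryocyte marker genes and CPM of Apoe, Cd36 and Nr1h3 on log axes, 1 point per library, in the 6 conditions (mand., mandible, fem., femur, lig., ligated, unlig., unligated). The 2 open points, replicate 2 of the LSD1WT femur, lie at 458 and 749 CPM for osteoclast markers, below every other library, and above every other library for Apoe and Cd36.

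Per kilobase of exon, which allows levels of different genes to be compared, Lpl was the most abundant of the 10 transcripts in the mandible, at a mean of 117 CPM per kb in LSD1WT and 158 CPM per kb in LSD1cKO. Apoe followed at 20.9 and 22.1 CPM per kb and the LXRβ gene Nr1h2 at 16 and 15.7 CPM per kb. At the low end of the LSD1WT mandible, Abca1 (2.34 CPM per kb) and Nr1h3 (2.28 CPM per kb) overlapped between libraries, as did Pparg (0.624 CPM per kb) and Cyp27a1 (0.564 CPM per kb). In the LSD1cKO mandible Abca1 was lowest, at 1.12 CPM per kb. In the femur, Apoe stood near Lpl in LSD1cKO, at 215 CPM per kb in the ligated and 162 CPM per kb in the unligated culture beside 154 and 168 CPM per kb for Lpl. Nr1h2 exceeded its paralog Nr1h3 per kb in all 6 conditions.

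**Figure D2:**
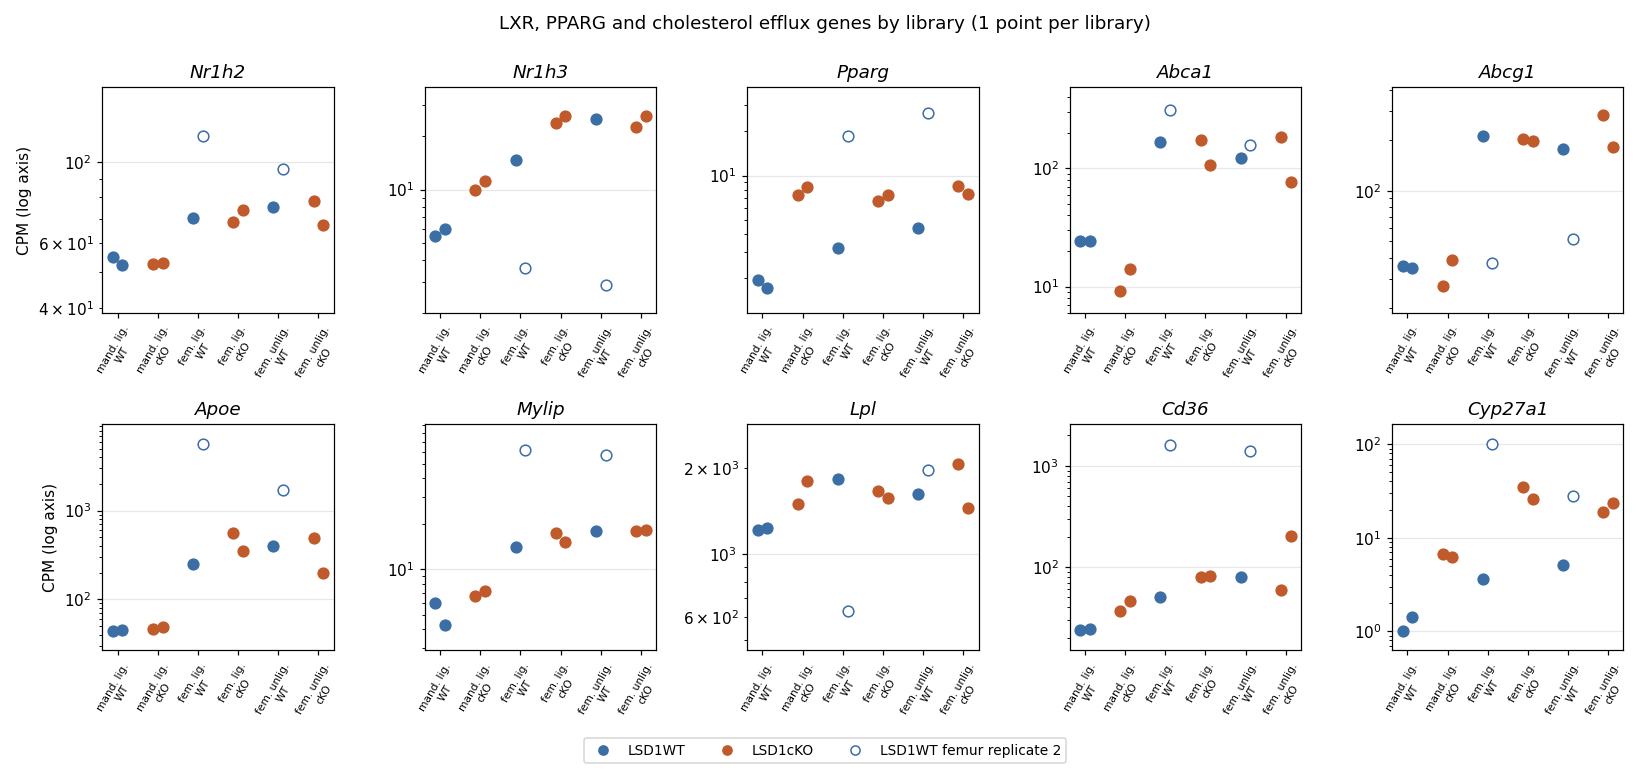
CPM of each of the 10 genes on a log axis, 1 point per library, by condition and genotype. Lpl stays between 634 and 2068 CPM throughout, Abca1 and Apoe are lower in the 4 mandible libraries than in all 8 femur libraries, and Cyp27a1 is higher in both LSD1cKO than in both LSD1WT mandible libraries.

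The effect of LSD1 deletion was examined in each culture and over the 3 cultures in a model with culture and genotype. With all 12 libraries, none of the 10 genes passed an adjusted p of 0.05 by edgeR in the mandible, where 0% of all genes were called, in the ligated femur (0.00648% of genes, Kdm1a alone), in the unligated femur (0%) or over the 3 cultures (3.53%), and DESeq2 called 0 of the 10 in each of these comparisons as well. At an unadjusted p under 0.05, 1 gene, Pparg, was higher in the LSD1cKO mandible against 4.82% of all genes in either direction, and over the 3 cultures Nr1h3 was higher and Abca1 lower against 16.1% of all genes. Without both replicate 2 libraries of the LSD1WT femur, Nr1h3, Pparg and Cyp27a1 were called higher in LSD1cKO in the mandible (5.13% of all genes), in the ligated femur (6.89%) and over the 3 cultures (14.4%), and Cyp27a1 alone in the unligated femur (2.14%). None of the 10 was called lower in these 4 comparisons. The 4 mandible libraries were the same in both analyses, and what changed there was mainly the spread shared by all conditions. Cyp27a1 in the mandible went from 2.39 (SE 1.27) to 2.42 (SE 0.25) on the log2 scale.

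**Figure D3:**
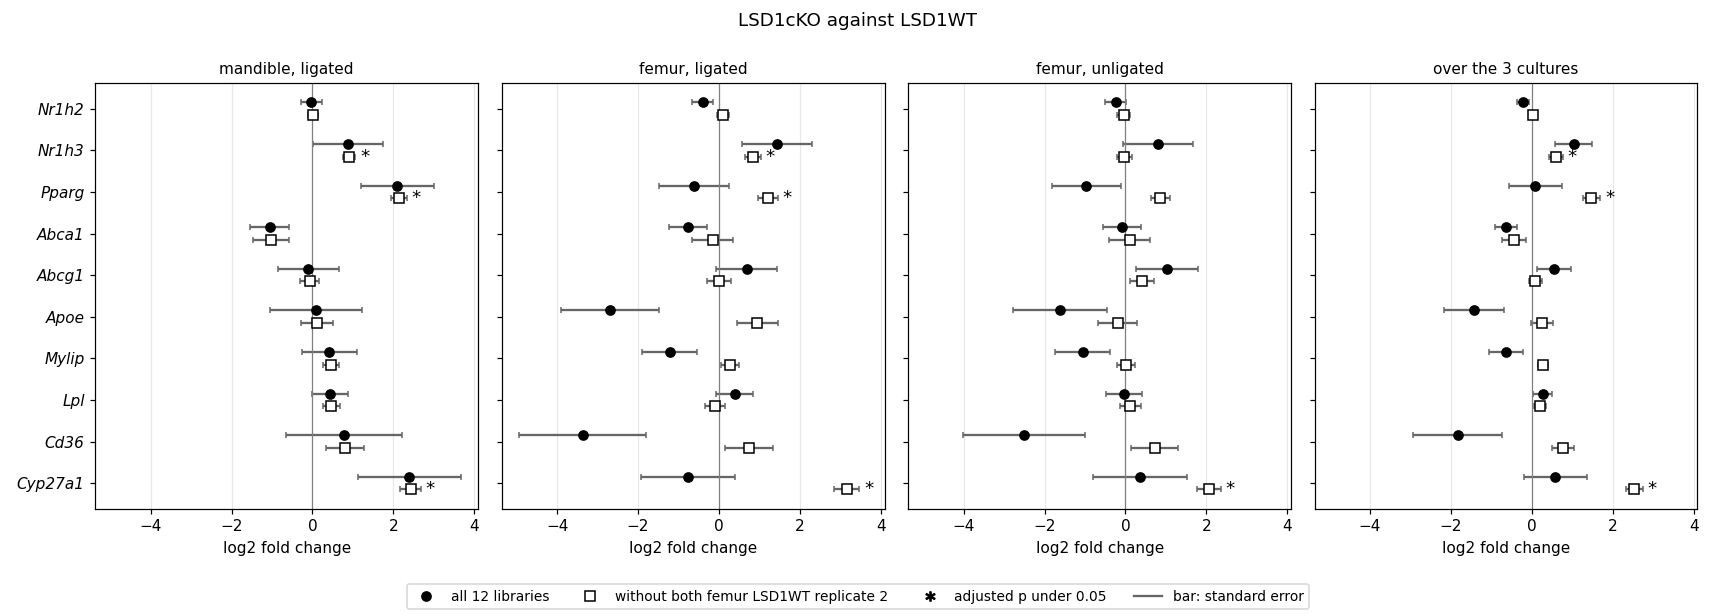
Log2 fold change of LSD1cKO against LSD1WT with its standard error for the 10 genes, in 3 cultures and over them, from all 12 libraries (filled) and without both LSD1WT femur replicate 2 libraries (open). Asterisks mark an adjusted p under 0.05, reached in the open points by Cyp27a1 in all 4 panels and by Nr1h3 and Pparg in 3.

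Among the receptors, Nr1h2 (ENSMUSG00000060601), which encodes the widely expressed LXRβ, was at 55.0 and 52.3 CPM in LSD1WT and 52.5 and 52.9 CPM in LSD1cKO mandible libraries. In the femur it ranged from 67.1 to 78.0 CPM in LSD1cKO and from 70.3 to 118 CPM in LSD1WT. Its genotype difference over the 3 cultures was -0.22 on the log2 scale, with a 95% confidence interval from -0.53 to 0.08, and 0.02 without both replicate 2 libraries, so that its direction rested on them.

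Nr1h3 (ENSMUSG00000002108), which encodes LXRα, the form prominent in macrophages, was at 5.47 and 6.02 CPM in the LSD1WT mandible and 9.89 and 11.1 CPM in the LSD1cKO mandible. Ligated femur levels were 14.7 and 3.59 CPM in LSD1WT and 23.9 and 26.0 CPM in LSD1cKO, so that in both cultures every LSD1cKO library exceeded every LSD1WT library. The unligated femur showed 24.9 and 2.90 CPM in LSD1WT beside 22.5 and 26.1 CPM for LSD1cKO, and there the genotypes overlapped. The log2 fold change over the 3 cultures was 1.04 (SE 0.46, adjusted p = 0.298, edgeR quasi-likelihood test with Benjamini-Hochberg adjustment). With all 12 libraries it was 0.87 in the mandible (SE 0.87) and 1.44 in the ligated femur (SE 0.87). Leaving out both replicate 2 libraries gave 0.91 in the mandible (SE 0.16, edgeR adjusted p = 0.0169), 0.84 in the ligated femur (SE 0.19, edgeR adjusted p = 0.0332), -0.03 in the unligated femur (edgeR adjusted p = 0.971), where it had been 0.80, and 0.60 over the 3 cultures (SE 0.16, edgeR adjusted p = 0.0236).

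Pparg (ENSMUSG00000000440) was lowest in the LSD1WT mandible, at 1.96 and 1.72 CPM, and was at 7.42 and 8.38 CPM in the LSD1cKO mandible, a log2 fold change of 2.1 (SE 0.90). LSD1cKO femur libraries stayed close to this level, at 6.72 and 7.36 CPM when ligated and 8.55 and 7.44 CPM when unligated. The LSD1WT femur pairs were split around them, at 3.23 and 18.5 CPM when ligated and 4.43 and 26.8 CPM when unligated, the higher value being replicate 2 in each. The log2 fold change was thus -0.62 in the ligated and -0.96 in the unligated femur with all libraries, against 1.21 (SE 0.25, edgeR adjusted p = 0.0250) and 0.86 (edgeR adjusted p = 0.113) without both. Over the 3 cultures it was 0.09 (SE 0.66) with all libraries and 1.47 without both (SE 0.22, edgeR adjusted p = 8.9e-04).

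Cyp27a1 (ENSMUSG00000026170) encodes sterol 27-hydroxylase, the mitochondrial enzyme that makes the oxysterol 27-hydroxycholesterol, a ligand of LXR. Its level was 1.02 and 1.43 CPM in the LSD1WT and 6.77 and 6.18 CPM in the LSD1cKO mandible, a log2 fold change of 2.39 (SE 1.27). In the ligated femur the LSD1WT values of 3.59 and 99.7 CPM lay on both sides of the LSD1cKO values of 34.5 and 26.0 CPM, and in the unligated femur 5.08 and 28.1 CPM lay around 18.7 and 23.7 CPM. The other LSD1WT femur libraries, replicate 1 in each culture, thus lay below all LSD1cKO libraries, and replicate 2 of the ligated femur was the highest of all 12. With all 12 libraries the log2 fold change was -0.77 in the ligated femur (SE 1.17) and 0.35 in the unligated femur (SE 1.17). Over the 3 cultures it was 0.58 (SE 0.78). Without both replicate 2 libraries the log2 fold change was 2.42 in the mandible (SE 0.25, edgeR adjusted p = 0.00239), 3.16 in the ligated femur (SE 0.31, edgeR adjusted p = 0.00294), 2.07 in the unligated femur (SE 0.29, edgeR adjusted p = 0.0234) and 2.53 over the 3 cultures (SE 0.21, edgeR adjusted p = 2.7e-05). The study reported Cyp27a1, measured by qRT-PCR, as higher in LSD1cKO preosteoclasts of both bones after ligature. It also displayed selected lipid genes of its sequenced libraries, among them Fabp5 and one written Cyp27. If the latter is this gene, its direction here is not independent evidence beside that display.

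Promoter windows are shown for Pparg and Cyp27a1, the genes with the largest genotype differences in the mandible, and for Abca1, an exporter with one of the largest differences between bones. Each holds 250 bases before and 50 after a RefSeq start site in GRCm38.p6, 5′ to 3′ in the direction of the gene, namely chr6:115362099-115362398 on the plus strand for Pparg, chr1:74713285-74713584 on the plus strand for Cyp27a1 and chr4:53159846-53160145 on the minus strand for Abca1. Capitals mark the best match, on either strand, to DR4, the direct repeat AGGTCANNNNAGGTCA with 4 free bases that LXR and its partner are known to bind.
Pparg: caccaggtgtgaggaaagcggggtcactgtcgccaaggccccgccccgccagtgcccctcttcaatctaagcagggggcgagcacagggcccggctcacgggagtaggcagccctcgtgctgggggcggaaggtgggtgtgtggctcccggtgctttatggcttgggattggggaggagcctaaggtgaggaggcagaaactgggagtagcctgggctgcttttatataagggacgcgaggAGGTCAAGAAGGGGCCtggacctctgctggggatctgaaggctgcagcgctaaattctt
Cyp27a1: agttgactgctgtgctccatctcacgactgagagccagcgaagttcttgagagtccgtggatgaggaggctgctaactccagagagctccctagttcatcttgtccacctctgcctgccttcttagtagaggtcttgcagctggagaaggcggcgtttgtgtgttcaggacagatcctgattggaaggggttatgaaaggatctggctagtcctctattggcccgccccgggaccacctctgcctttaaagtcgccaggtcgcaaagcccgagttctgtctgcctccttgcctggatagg
Abca1: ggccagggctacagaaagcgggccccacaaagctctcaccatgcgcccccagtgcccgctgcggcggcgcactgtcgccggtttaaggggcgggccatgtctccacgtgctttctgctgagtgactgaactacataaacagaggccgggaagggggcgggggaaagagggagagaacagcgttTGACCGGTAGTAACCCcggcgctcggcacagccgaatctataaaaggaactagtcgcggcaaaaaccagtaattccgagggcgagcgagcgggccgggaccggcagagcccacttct
The Pparg match starts 9 bases before the start site and the Abca1 match, on the reverse strand, 67 bases before it, each with 3 mismatches, and the first contains the single element AGGTCA. No DR4 match with up to 3 mismatches lay in the Cyp27a1 window or in any other window of the 10 genes. The other Pparg windows, not shown, had 4 mismatches at best. Of all 32851 windows in the table, 21.9% held a DR4 match with up to 3 mismatches, 3.02% with up to 2 and 16.3% held AGGTCA, with overlapping matches counted once per window. Of the 10 genes, 8 had 13 windows between them, and besides these Pparg and Cd36 had AGGTCA in 1 further window each and Cd36 a DR1 match (AGGTCANAGGTCA) with 2 mismatches, found in 3.86% of all windows. A match is a description of the letters and no measure of receptor binding.

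In the group of cholesterol exporters and acceptors, Abca1 (ENSMUSG00000015243), which loads cholesterol onto lipid-poor apolipoproteins, was at 24.1 and 24.4 CPM in the LSD1WT mandible and 9.20 and 14.1 CPM in the LSD1cKO mandible, a log2 fold change of -1.06 (SE 0.48). In the femur the genotypes overlapped, with 167 and 314 CPM in LSD1WT beside 175 and 107 CPM in LSD1cKO when ligated, and 123 and 157 CPM beside 186 and 76.3 CPM when unligated. Its difference over the 3 cultures was -0.64 on the log2 scale (SE 0.28, adjusted p = 0.289, edgeR quasi-likelihood test with Benjamini-Hochberg adjustment) with all libraries and -0.45 (edgeR adjusted p = 0.307) without both replicate 2 libraries. Abca1 was the 1 gene of the 10 with both LSD1cKO libraries below both LSD1WT libraries in the mandible, where 34.8% of all genes lay so.

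Abcg1 (ENSMUSG00000024030), which exports cholesterol to high-density lipoprotein, showed no separation in the mandible, at 35.7 and 34.9 CPM in LSD1WT and 27.2 and 38.6 CPM in LSD1cKO. Ligated femur levels were 212 and, in replicate 2, 37.1 CPM in LSD1WT, beside 203 and 197 CPM in LSD1cKO. Both LSD1cKO libraries of the unligated femur, at 282 and 182 CPM, exceeded both LSD1WT libraries, at 177 and 51.6 CPM, and it was the 1 gene of the 10 to do so (9.82% of all genes). The log2 fold change there was 1.03 with all libraries and 0.41 without both replicate 2 libraries (edgeR adjusted p = 0.551). Apoe (ENSMUSG00000002985), the apolipoprotein that macrophages secrete with exported cholesterol, was within 43.9 to 48.6 CPM in all 4 mandible libraries. The LSD1WT ligated femur showed 253 and 5658 CPM and its LSD1cKO counterpart 566 and 352 CPM, and the log2 fold change of -2.69 (SE 1.21) became 0.94 without both replicate 2 libraries. The unligated values of 398 and 1718 CPM in LSD1WT and 495 and 198 CPM in LSD1cKO overlapped.

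Mylip (ENSMUSG00000038175), whose product IDOL lowers LDL uptake, was at 6 and 4.29 CPM in LSD1WT and 6.59 and 7.14 CPM in LSD1cKO mandible libraries. Its LSD1cKO femur values lay within 15.1 to 18.2 CPM, beside 14.1 and 61.2 CPM in the ligated and 18.0 and 57.4 CPM in the unligated LSD1WT femur. Apart from the replicate 2 libraries, then, the femur level of Mylip kept within a range of 14.1 to 18.2 CPM in both genotypes.

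The uptake genes were expressed at very different levels. Lpl (ENSMUSG00000015568), which releases fatty acids from lipoprotein triglyceride, was at 1213 and 1236 CPM in LSD1WT and 1498 and 1809.9 CPM in LSD1cKO mandible libraries, a log2 fold change of 0.43. Its femur values ranged from 634 to 1980.5 CPM in LSD1WT and from 1453 to 2068 CPM in LSD1cKO, with the lowest in replicate 2 of the ligated LSD1WT femur. Cd36 (ENSMUSG00000002944), the scavenger receptor for oxidised LDL and long-chain fatty acids, was at 23.9 and 24.4 CPM in LSD1WT and 36.6 and 46.1 CPM in LSD1cKO mandible libraries (log2 fold change 0.78). Among ligated femur libraries, LSD1WT had 50.4 and 1604 CPM and LSD1cKO 79.3 and 80.5 CPM, and the corresponding unligated values were 79.5 and 1403 CPM beside 58.7 and 202 CPM. The difference over the 3 cultures was -1.83 on the log2 scale with all libraries and 0.77 without both (SE 0.27, edgeR adjusted p = 0.0628), so the direction rested on these 2 libraries.

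Counted over the 10 genes, both LSD1cKO libraries exceeded both LSD1WT libraries for 7 genes in the mandible, where 34.1% of all genes did so, for 1 in the ligated femur (14.8%, Nr1h3) and for 1 in the unligated femur (9.82%). No gene of the 10 separated the genotypes in the same direction within each of the 3 cultures, whereas 5.17% of all genes were higher and 3.2% lower in this way. With both replicate 2 libraries left out, Pparg and Cyp27a1 were higher in LSD1cKO than in the LSD1WT libraries left within each of the 3 cultures (15.2% of all genes). The median log2 fold change over the 3 cultures was -0.07 for the 10 genes and -0.06 for all genes tested with 12 libraries, and 0.26 against 0.02 without both. In a model of the 4 mandible libraries alone, 6 of the 10 passed an adjusted p of 0.05 by edgeR, but so did 37.7% of all genes. Nr1h3, Pparg, Lpl, Cd36 and Cyp27a1 were higher and Abca1 lower. Replicates were close there, with a median absolute log2 difference over genes of 0.082 in LSD1WT and 0.148 in LSD1cKO. The femur pairs had 0.189 to 0.732. That the LSD1WT mandible pair, the closest of the 6, came from separate mice rests on the titles alone, and its replicate 3 has conflicting labels. Osteoclast markers moved with the genotype in the mandible too, with sums of 29022.5 and 28828 CPM in LSD1WT and 16606 and 16753 CPM in LSD1cKO. So did stromal markers, with 42.8 and 42.9 CPM in LSD1WT and 10.8 and 5.25 CPM in LSD1cKO. In the ligated femur without replicate 2 of LSD1WT, the osteoclast sum was 44704 CPM in LSD1WT against 22169 and 19767 CPM in LSD1cKO, and neutrophil markers stood at 116 CPM against 306 and 279 CPM. The part of these markers in the genotype differences was not tested.

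Mandible and femur cultures of ligated mice were compared within each genotype to ask whether the origin of the marrow altered these genes. In a wider count that pooled the genotypes and included femur libraries of unligated mice, replicate 2 of the LSD1WT femur was set aside. As many as 7 of the 10 genes were then lower in all 4 mandible libraries than in all 6 femur libraries left. They were Nr1h2, Nr1h3, Abca1, Abcg1, Apoe, Mylip and Cd36, and the same held for 8.91% of all genes. The comparisons that follow used ligated mice within each genotype. With all 12 libraries, edgeR called 0 of the 10 (0% of all genes) in either genotype, whereas DESeq2 called 6 in LSD1WT (7.71% of all genes) and 3 in LSD1cKO (5.25%). At an unadjusted p under 0.05, 8 of the 10 were lower in LSD1WT (14.7% of all genes) and 3, Abca1, Abcg1 and Apoe, in LSD1cKO (6.81%).

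**Figure D4:**
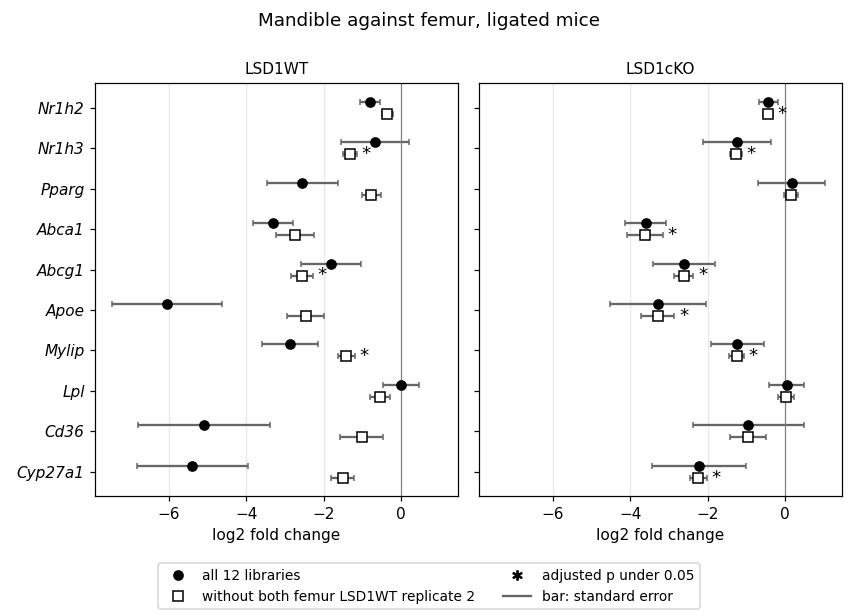
Log2 fold change of mandible against femur with its standard error for the 10 genes in ligated LSD1WT and LSD1cKO mice, from all 12 libraries (filled) and without both LSD1WT femur replicate 2 libraries (open), with asterisks at an adjusted p under 0.05. Abca1 lies at -3.31 and -3.60 from all libraries, Lpl lies near 0, and 7 genes are marked in LSD1cKO and 3 in LSD1WT in the open points.

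In LSD1cKO, where both pairs were even and came from the same mice, Abca1 was 3.60 lower on the log2 scale (SE 0.52, adjusted p = 0.082, edgeR quasi-likelihood test with Benjamini-Hochberg adjustment), with 9.20 and 14.1 CPM in the mandible against 175 and 107 CPM in the femur. Apoe, at 46.1 and 48.6 against 566 and 352 CPM, differed by -3.28, and Abcg1, at 27.2 and 38.6 against 203 and 197 CPM, by -2.60. Cyp27a1 differed by -2.22, Nr1h3 by -1.25, Mylip by -1.23, Cd36 by -0.95 and Nr1h2 by -0.43. The separation was complete for these 8 genes (35% of all genes were lower in this way), and Pparg was the 1 gene higher in both mandible libraries (35.3% of all genes), at 7.42 and 8.38 against 6.72 and 7.36 CPM. Lpl, at 0.04 with a 95% confidence interval from -1 to 1.07, spanned differences of about 2-fold in either direction.

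Once the replicate 2 libraries of LSD1WT were left out, the spread shared by all conditions shrank and 7 of the 10 were called lower in the LSD1cKO mandible by edgeR (11% of all genes), namely Abca1 at -3.62 (SE 0.47, edgeR adjusted p = 0.00196), Apoe at -3.29 (SE 0.43, edgeR adjusted p = 0.00219), Abcg1 at -2.62 (SE 0.25, edgeR adjusted p = 7.9e-04), Cyp27a1 at -2.24 (SE 0.22, edgeR adjusted p = 8.6e-04), Nr1h3 at -1.27, Mylip at -1.25 and Nr1h2 at -0.45. With the mouse as a replicate block over the 8 ligated libraries, 8 were called lower in LSD1cKO (18.6% of all genes), all but Pparg and Lpl. That model left 1 residual degree of freedom, and its LSD1cKO contrast rests on 2 mice. Deviations of the same-mouse LSD1cKO libraries correlated at only 0.026.

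In LSD1WT the differences from all libraries were larger for the genes that were high in replicate 2 of the femur, at -6.05 for Apoe (SE 1.42), -5.39 for Cyp27a1, -5.10 for Cd36, -2.87 for Mylip and -2.56 for Pparg, while Abca1 stood at -3.31 (SE 0.52, edgeR adjusted p = 0.167), Abcg1 at -1.82, Nr1h2 at -0.81 and Nr1h3 at -0.68. Both mandible libraries lay below both femur libraries for 8 of the 10 (31.5% of all genes), the exceptions being Nr1h3 and Lpl. Against replicate 1 of the ligated femur alone, Abcg1 at -2.55 (edgeR adjusted p = 0.0194), Mylip at -1.42 (edgeR adjusted p = 0.0398) and Nr1h3 at -1.33 (edgeR adjusted p = 0.0276) were called lower (0.768% of all genes), and Abca1 at -2.75 (edgeR adjusted p = 0.0576) and Apoe at -2.47 (edgeR adjusted p = 0.0652) missed the threshold. In that analysis Cyp27a1 stood at -1.51 (edgeR adjusted p = 0.0693), Cd36 at -1.03 and Nr1h2 at -0.36. With the mouse as a block, 7 of the 10 were called (4.56% of all genes), Nr1h2, Pparg and Lpl being the others, but in LSD1WT this contrast rests on 1 mouse, the only one with both bones. Macrophage markers moved with the bone as well, with sums of 1638 to 2107 CPM in the 4 mandible libraries and 3549 to 4409 CPM in the ligated femur libraries other than replicate 2 of LSD1WT. Osteoclast markers in LSD1WT summed to 29022.5 and 28828 CPM in the mandible against 44704 CPM in femur replicate 1. In LSD1cKO they summed to 16606 and 16753 CPM against 22169 and 19767 CPM. Mertk, a phagocyte receptor on the list of further LXR targets that was picked after its values were seen, was at 1.63 to 2.78 CPM in the mandible and 13.0 to 55.5 CPM in the femur libraries of ligated mice other than replicate 2. The 8 T and NK cell markers, 1 of them tested, summed to 0.326 to 0.859 CPM in the mandible and 3.91 to 14.1 CPM in those femur libraries, and stromal markers in LSD1WT to 42.8 and 42.9 CPM against 1.75 CPM in femur replicate 1. The part of these markers in the difference between bones was not tested.

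The interaction of genotype and bone was not called for any of the 10 (0% of all genes). It was 4.15 on the log2 scale for Cd36 (SE 2.1), 3.16 for Cyp27a1 (SE 1.72), 2.77 for Apoe (SE 1.64) and 2.72 for Pparg (SE 1.24), each with an adjusted p of 1 by the edgeR quasi-likelihood test. Without both replicate 2 libraries it turned to -0.73 for Cyp27a1 and -0.82 for Apoe. It shrank for Cd36 and Pparg as well. Their genotype differences in the mandible and the ligated femur were then 0.81 and 0.75 for Cd36, and 2.13 and 1.21 for Pparg. For Pparg the mandible level was lower than the femur level in LSD1WT and higher in LSD1cKO, and without both replicate 2 libraries these differences were -0.78 and 0.15.

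Ligature was compared with no ligature in the femur, which asks whether inflammation in the jaw was followed by a difference at a distant bone. None of the 10 passed in LSD1WT (0% of all genes) or LSD1cKO (0% of all genes), nor did the interaction of genotype and ligature (0% of all genes), with or without the replicate 2 libraries. Abca1 was the 1 gene higher in both ligated LSD1WT libraries, at 167 and 314 against 123 and 157 CPM (5.25% of all genes), a log2 fold change of 0.78. In LSD1cKO, Cyp27a1 was higher in both ligated libraries, at 34.5 and 26.0 against 18.7 and 23.7 CPM (14% of all genes), and Pparg and Mylip were lower in both (16% of all genes), with condition means less than 2-fold apart.

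Other genes of the pathway were read from lists of 14 receptor partners and co-regulators, 15 further LXR targets, 15 further PPAR targets and 17 genes of sterol and lipoprotein handling, of which 12, 9, 11 and 15 were tested. Over the 3 cultures and all 12 libraries, 1 LXR target, Pltp, and 1 PPAR target, Klf4, were called higher in LSD1cKO by edgeR and none was called lower, beside 3% of all genes called higher and 0.532% called lower. Pltp (ENSMUSG00000017754), the phospholipid transfer protein of lipoproteins, was at 49.6 and 49.9 CPM in LSD1WT and 81.4 and 114 CPM in LSD1cKO mandible libraries, and at 126 and 248 CPM beside 427 and 372 CPM in the ligated femur (log2 fold change over the 3 cultures 1.22, SE 0.29, edgeR adjusted p = 0.0473). Without both replicate 2 libraries it was again 1.22 (edgeR adjusted p = 0.00195). Klf4 (ENSMUSG00000003032), a transcription factor of monocytes, was at 9.60 to 16.1 CPM in the 6 LSD1WT libraries and 29.3 to 41.3 CPM in the 6 LSD1cKO libraries, without overlap (1.61, SE 0.16, edgeR adjusted p = 9.2e-04), and stood at 1.68 without both (edgeR adjusted p = 1.4e-05).

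Of the partners, Rxra (ENSMUSG00000015846), the retinoid X receptor that pairs with LXR and PPARG, was at 11.6 to 25.7 CPM in 10 libraries and at 176 and 169 CPM in replicate 2 of the LSD1WT femur. Ppard (ENSMUSG00000002250) showed 63.6 and 50.1 CPM there against 18.5 to 33.7 CPM elsewhere, and Nceh1 (ENSMUSG00000027698), a cholesteryl ester hydrolase, 499 and 527 CPM against 94.3 to 185 CPM. Fabp5 (ENSMUSG00000027533), a fatty acid carrier, was at 39.5 and 39.6 CPM in LSD1WT and 82.9 and 98.1 CPM in LSD1cKO mandible libraries, and its log2 fold change over the 3 cultures was 0.81 (edgeR adjusted p = 0.101), and 1.15 without both replicate 2 libraries (edgeR adjusted p = 0.00245). Without both replicate 2 libraries, the calls over the 3 cultures came to 1 higher and 1 lower among the partners, 3 higher among LXR targets, 3 higher and 1 lower among PPAR targets, and 5 higher and 1 lower among sterol and lipoprotein genes, beside 14.4% of all genes called higher and 9.75% called lower.

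Finally, the 2 genes whose log2 CPM followed each of the 10 most closely over the 12 libraries were listed, from 9311 genes with a mean log2 CPM above 3. For Apoe they were Cracr2b (Pearson r = 0.995) and Peli2 (0.991), for Cd36 Stab1 (0.993) and Pf4 (0.991), for Cyp27a1 Pik3r6 (0.994) and Tmem71 (0.993), for Pparg Rbck1 (0.988) and Kcnk13 (0.982), and for Mylip Rab3il1 (0.988) and Iqgap2 (0.986). Nr1h2 was closest to Abtb1 (0.989) and Tef (0.989), Nr1h3 to Rasa4 (0.963) and Clec12a (0.955), Abca1 to Stk38 (0.979) and Tmem86a (0.969), and Abcg1 to Kcnj2 (0.951) and Rnf181 (0.946). Lpl had the weakest likeness, to Flna (0.926) and Riox1 (0.914), which dropped to 0.725 and 0.647 over the 10 libraries without the replicate 2 libraries. These correlations are descriptions over libraries that share mice, conditions and the same 2 distant libraries, and for the other 9 genes they were 0.903 to 0.994 without those.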

How the data were processed

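Bulk RNA-seq counts per gene of 12 libraries were used as deposited. Per the labels and the submitters' processing notes, the authors aligned reads to GRCm39 with HISAT2 2.1.0 and counted them with featureCounts; edgeR and FastQC are also named. The deposited counts are whole numbers per Ensembl gene, without normalization. Here, genes were kept by filterByExpr (15425 of 57010), libraries were scaled by TMM, and edgeR 4.0.16 (R 4.3.3) quasi-likelihood models with 1 coefficient per condition, or with culture and genotype, were tested two-sided with Benjamini-Hochberg adjustment over all genes at 0.05. CPM used TMM-scaled library sizes, and log2 CPM a prior count of 2. Standard errors and intervals come from these fits. Exon lengths were matched by Ensembl ID from GENCODE vM21 (GRCm38), used for no coordinates. Total counts had a median of 26364586 per library, and the lowest count of the 10 genes was 25, for Cyp27a1 in an LSD1WT mandible library. The scripts were tested on simulated data. DESeq2 1.42.0, RLE scaling, no filter, compared conditions alone, replicate blocks and left-out libraries were tried as alternatives. The 10 genes, the gene lists, written from general knowledge, and the comparisons were chosen with earlier results of these data known. All 10 genes are named, and from each list those called for genotype, and the 2 highest and 2 lowest changes over the 3 cultures among genes at an unadjusted p under 0.05. Between genotypes the replicate numbers name different mice and pair nothing. Between bones the labels tie libraries to mice, and a mouse block was tried, although deviations of the same-mouse LSD1cKO libraries correlated at only 0.026.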

Additional observations from a re-analysis of the deposited data

Results flagged for a closer look

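Pparg differed between mandible and ligated femur in opposite directions in the 2 genotypes, at -2.56 on the log2 scale in LSD1WT and 0.16 in LSD1cKO, with no overlap between the 2 mandible and 2 femur libraries in either. The difference between these effects, the interaction of genotype and bone, was 2.72 (SE 1.24) with a Benjamini-Hochberg adjusted p of 1 in edgeR's quasi-likelihood test, so the opposite directions did not pass the test. Without both replicate 2 libraries of the LSD1WT femur the values were -0.78 and 0.15.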

How the results depend on the processing

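Of the 52 single-gene differences, 925 recomputed values kept direction and call, 78 passed the threshold only in the alternative and 51 turned direction. With all libraries none of the 10 genes was called, so no call could be lost. With both femur LSD1WT replicate 2 libraries left out, 3 genes were called in the mandible, 3 in the ligated femur, 1 in the unligated femur and 3 over the 3 cultures, 3 between bones in LSD1WT and 7 in LSD1cKO. The same step turned, on the log2 scale, Pparg (1.21), Apoe (0.94), Mylip (0.28), Cd36 (0.75) and Cyp27a1 (3.16) in the ligated femur, Pparg (0.86) and Cd36 (0.72) in the unligated femur, Cd36 over the 3 cultures (0.77) and Cyp27a1 for ligature in LSD1WT (-0.55), by construction through those 2 libraries. It also turned Nr1h3 in the unligated femur (-0.028), Nr1h2 over the 3 cultures (0.021) and the interaction of genotype and bone for Apoe (-0.82) and Cyp27a1 (-0.73), and in all turned 18 of 40 genotype differences of the 10 genes, 1 in the mandible, 7 in the ligated femur, 6 in the unligated femur and 4 over the 3 cultures. Leaving out 1 library at a time gave, in the ligated femur, -1.31 to 1.12 for Pparg, -3.54 to 0.86 for Apoe, -1.84 to 0.19 for Mylip, -4.24 to 0.66 for Cd36 and -1.63 to 3.07 for Cyp27a1. It gave, in the unligated femur, -1.67 to 0.86 for Pparg, -3.59 to 0.72 for Cd36, -0.34 to 2.07 for Cyp27a1 and -0.029 to 3.13 for Nr1h3, and -0.20 to 0.79 for Pparg over the 3 cultures. Between bones it gave -1.36 to 0.71 for Nr1h3 and -0.58 to 0.99 for Lpl in LSD1WT and -0.13 to 0.14 for Lpl in LSD1cKO, for the interaction with bone -0.77 to 3.66 for Apoe and -0.67 to 4.06 for Cyp27a1, and for ligature -2.21 to 3.29 for Cyp27a1 in LSD1WT and -1.30 to 0.47 for Cd36 in LSD1cKO. Genes called between bones ranged from 0 to 7 in LSD1WT and from 0 to 3 in LSD1cKO, the upper values without ligated femur LSD1WT replicate 1.

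Between bones, DESeq2 called 6 genes in LSD1WT (7.71% of all genes) and 3 in LSD1cKO (5.25%), and no filter gave 5 (3.02%) and 2 (1.21%). The compared conditions alone gave 8 in LSD1cKO (42.1%), and 6 for genotype in the mandible (37.7%). The replicate block by number called 0 of the 10 genes in each comparison and put Cd36 in the mandible at -0.037. The replicate block by mouse called 7 in LSD1WT and 8 in LSD1cKO between bones, with 1 residual degree of freedom and only 1 LSD1WT mouse with both bones. Deviations of same-numbered libraries correlated at -0.0226 between genotypes in the ligated and 0.224 in the unligated femur, and between ligated and unligated femur at 0.78 in LSD1WT and 0.224 in LSD1cKO, groups that share a number but no mouse. Pparg over the 3 cultures was -0.18 with the mandible LSD1WT pair summed. Lpl between bones in LSD1WT was 0.0036 with DESeq2 and with RLE scaling, 0.0032 with the conflicting library as ligated femur, 0.029 with the compared conditions alone and 0.033 with the summed pair. The cause of these changes was not tested. With 2 libraries a condition, replicate spread limits these comparisons, and depth limits Cyp27a1 in the LSD1WT mandible, with a lowest count of 25.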

Other observations

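Other lipid genes of the lists differed between bones and genotypes in the analysis without both replicate 2 libraries of the LSD1WT femur. They were chosen after their values were seen. The desaturases Scd1 and Scd2, which make monounsaturated fatty acids and are LXR targets, were both low in the mandible. Scd2 was at 32.5 to 43.7 CPM in the 4 mandible libraries and at 148 to 699 CPM in the 8 femur libraries, and Scd1 at 0.343 to 0.734 against 3.65 to 35.0 CPM. Between LSD1cKO and LSD1WT in the ligated femur they went in opposite directions, with Scd1 at 1.69 on the log2 scale (SE 0.32, edgeR adjusted p = 0.0189) and Scd2 at -1.61 (SE 0.22, edgeR adjusted p = 0.00681), from 1 LSD1WT library. Ch25h, the enzyme that makes 25-hydroxycholesterol, was at 0.162 CPM in that library and at 1.17 and 1.93 CPM in LSD1cKO (3.30, SE 0.74, edgeR adjusted p = 0.0331), levels near the lowest tested.

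Again without both replicate 2 libraries, Msr1, a scavenger receptor of macrophages, was higher in LSD1cKO over the 3 cultures (1.45 on the log2 scale). Arl4c, an LXR target, was higher as well (1.28), while Vldlr, a lipoprotein receptor, was lower (-1.36). With all 12 libraries none of these genes was called for the genotype. Ppargc1b, a coactivator of mitochondrial genes in osteoclasts, was at 1.49 and 3.27 CPM in the replicate 2 libraries of the LSD1WT femur and at 31.3 to 104 CPM in the other 10, the same order of libraries at the low end as the summed osteoclast markers.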
